A study of Mus musculus with 16 samples.

Results

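Cyp4a14 is a mouse gene for a cytochrome P450 that hydroxylates fatty acids at the omega end of the chain. It was followed by its platform gene symbol, which 1 of the 20205 probes of the array carried, as 1 of 9669 genes with a probe of their own, across all 16 arrays of the series. It was chosen by these same log2 ratios, which differed widely between kidneys. They are therefore given as a description, with no test.

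The tissue was the right kidney of wild-type male mice on a mixed C57BL/6 and 129Sv background. The 5 animals, W1, W2, W3, W4 and W5, were littermates aged 88 ± 2 days, killed between 8 and 10 in the morning. RNA of W1, W2, W3 or W4 was set against RNA of W5 on 4 two-colour arrays per mouse, with the mouse in channel 1 on 2 of them and in channel 2 on the other 2. No animal was treated or carried an engineered allele, per the labels, so the comparison concerns normal variation between individuals. Each kidney gave 1 RNA extract as far as the labels say, and repeat arrays measure hybridisation error rather than variation between animals.

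Omega-hydroxylation is a minor route of fatty acid breakdown that feeds dicarboxylic acids into peroxisomal oxidation. In rodent liver and kidney, Cyp4a10 and Cyp4a14 are classical targets of PPARalpha, the nuclear receptor that fatty acids and fibrate drugs activate, and their transcripts increase in fasting. The kidney enzymes of the Cyp4a group act in the proximal tubule, and several of them convert arachidonic acid to 20-HETE, a regulator of vascular tone and salt transport. Male mice without Cyp4a14 have been described as hypertensive, in connection with androgen and Cyp4a12.

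Values below are log2 ratios of a kidney against W5. The labels do not say which channel is the numerator, so the direction of every ratio is unknown. Signs were set so that Cyp4a14 is positive. A positive value of another gene thus lies on the same side of W5 as Cyp4a14, and a negative one on the opposite side, and neither says which kidney held more transcript. Errors are standard errors (SE) of a limma fit over n = 4 arrays per mouse.

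The 4 arrays of W1 gave 0.66, 0.77, 0.70 and 0.61 for Cyp4a14. Those of W2 gave 1.39, 1.65, 1.63 and 1.83. Those of W3 gave 0.39, 0.35, 0.48 and 0.10, and those of W4 gave 0.93, 1.15, 0.95 and 0.42. All 16 arrays placed the mouse on the same side of W5. The arrays of W2 lay wholly beyond the 12 arrays of the other mice. Those of W4 at 0.93, 1.15 and 0.95 lay beyond all arrays of W1 and W3. The W4 array at 0.42 lay below those of W1 and among those of W3. As deposited, before arrays were turned, the sign was negative on all 8 arrays with the mouse in channel 1 and positive on all 8 with it in channel 2.

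**Figure D1:**
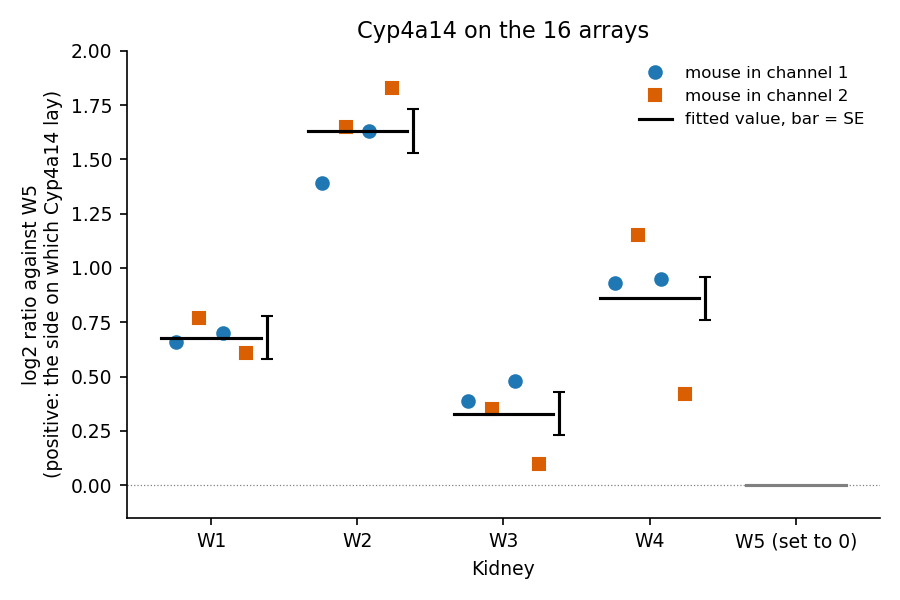
Log2 ratio of Cyp4a14 against W5 (y axis) on each array of W1, W2, W3 and W4 (x axis), with circles for arrays holding the mouse in channel 1 and squares for channel 2. Lines are fitted values with SE bars beside them, and W5 is 0 by construction; the 4 arrays of W2, from 1.39 to 1.83, stand clear of all others.

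Fitted over its arrays, W2 lay 1.63 ± 0.10 from W5, which is 3.08-fold. W4 lay 0.86 ± 0.10 away, or 1.82-fold, and W1 lay 0.68 ± 0.10 away, or 1.61-fold. W3 was the nearest to W5, at 0.33 ± 0.10 or 1.26-fold. From one end to the other the order was thus W2, W4, W1, W3 and W5. The step between W2 and W4 was 0.76 ± 0.14, and their arrays did not overlap. The step between W4 and W1 was 0.18 ± 0.14 with overlapping arrays, so these neighbours did not differ beyond their spread. Their overlap rests on the W4 array at 0.42, and without that array W4 lay 1.02 from W5. W1 and W3 were 0.36 ± 0.14 apart without overlap, and the arrays of W4 and W3 did overlap, through the same W4 array.

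W5 was the common partner of every array and its own hybridisation error is part of each ratio. Among W1 to W4, where W5 cancels, Cyp4a14 ranged over 1.3, or 2.46-fold between W2 and W3. The SD of the 4 mice was 0.55, and that of all 5 kidneys was 0.61. Between repeat arrays the technical SD was 0.207, close to the median of 0.195 over all 15715 probes tested. After the technical part was taken off, the SD between W1 to W4 was 0.537, and 87.1% of the single-array variance lay between the mice. The dye term of the probe, which measures a bias towards one channel, was 0.02 ± 0.05, against a median size of 0.07.

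Of 8005 named genes tested, Cyp4a14 had the 9th widest range over the 5 kidneys and the 7th widest among W1 to W4. The median range was 0.23 in both. The gene was picked for this width, so its rank is part of the choice. Over all probes, 1.33% had 1 mouse whose arrays lay wholly beyond those of the other 3, as Cyp4a14 had with W2.

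**Figure D2:**
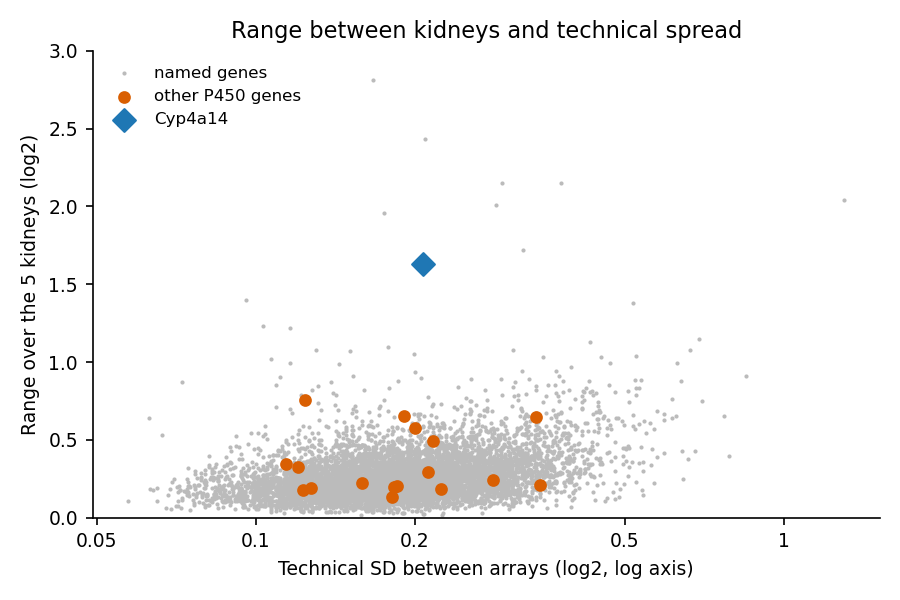
Range over the 5 kidneys (y axis, log2) against the technical SD between arrays (x axis, log2 units on a log axis) for the named genes, with Cyp4a14 as a diamond and the other P450 genes as large dots. Cyp4a14 combines a range of 1.63 with an ordinary technical SD of 0.207.

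Close relatives were examined next. Cyp4a10, Cyp4a12a, Cyp4a12b and the other Cyp4a genes of the list were not analysed here, and 2 probes that list several Cyp4 genes were given no name. Cyp4a genes are alike in sequence and lie together on chromosome 4, and the bases of the probe were not examined, so the probe may also bind transcripts of related Cyp4a genes. The signal is called Cyp4a14 in that sense. Cyp4b1, Cyp4f13, Cyp4f14 and Cyp4f18, the tested relatives from other branches of the family, had ranges of 0.19, 0.20, 0.21 and 0.24. None of these 4 was called in the 5-kidney test, a limma F test of whether any kidney differs, at a Benjamini-Hochberg adjusted p under 0.05 over all probes (adjusted p from 0.382 to 0.938, and 0 of 4 at an unadjusted p under 0.05). That test called 4.00% of all probes, and 336 of the 8005 named genes (4.2%). Cyp4b1, a P450 of fatty acids and small toxins that sits beside the Cyp4a genes, was -0.06, -0.12, 0.07 and -0.12 in W1 to W4 (SE 0.08). Cyp4f13 was 0.06, 0.08, 0.17 and 0.20 (SE 0.09).

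Of all P450 genes other than Cyp4a14, 17 were tested, the 4 Cyp4 genes above included, and 5 were called, which is 29.4%. The ranges of the 17 ran from 0.13 to 0.76. Cyp2d9, a steroid and drug hydroxylase with male-biased expression, had the widest of these and was 0.76, 0.01, 0.32 and 0.69 in W1 to W4 (SE 0.08). Its extreme kidneys were W1 and W4, while W2 lay at W5. Cyp2d26 and Cyp2d40, of the same subfamily, were also called, with ranges of 0.58 and 0.34, as were Cyp26b1, which breaks down retinoic acid, at 0.66 and Cyp51, of cholesterol synthesis, at 0.49. Cyp2d genes share sequence and may cross-hybridise, so these are not independent measurements. These P450 genes outside the Cyp4 family were singled out after their values were seen.

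Genes beside Cyp4a14 on chromosome 4 were compared next. The 25 nearest named genes tested on each side included 1 called gene among 50 (2%), and their median range was 0.21. The called gene was Fam151a, at the outer end of this window, at -0.13, -0.52, 0.01 and -0.25 in W1 to W4 (SE 0.08, adjusted p = 0.0032). The nearest tested neighbours, Pdzk1ip1 on one side and Cyp4b1 on the other, were not called (adjusted p = 0.0876 and 0.518). Of a shorter list of neighbours, 8 were tested and 0 called with limma, with 2 at an unadjusted p under 0.05. No genotype was examined.

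Targets of PPARalpha formed the main pathway comparison. Of a list of 60 other targets, 32 were tested, and the others were not analysed here. The 5-kidney test called 3 of the 32 (9.38%), namely Cidec, Txnip and Pank1, and 12 of them had an unadjusted p under 0.05, against 1460 of 8005 named genes. A further probe of the target Mgll, monoglyceride lipase, was also called (range 0.41, adjusted p = 0.0348), while the probe counted for that gene was not (adjusted p = 0.108). Cidec, a lipid droplet protein, was 0.37, 0.36, 0.68 and 0.85 in W1 to W4 (SE 0.16, adjusted p = 0.00219). Its extreme kidney was W4. Txnip, a thioredoxin inhibitor that responds to glucose, was 0.25, -0.06, 0.34 and 0.11 (SE 0.08, adjusted p = 0.0397), and it lost its call in 19 of 29 alternative settings. Pank1, a kinase of coenzyme A synthesis, was -0.24, -0.33, -0.33 and -0.31 (SE 0.11, adjusted p = 0.0133), with the 4 mice close together on the opposite side of W5.

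The second F test asked what differs among W1 to W4 and called 0.700% of all probes and 0.824% of named genes. It called 0 of the 32 targets with limma, while 6 of them had an unadjusted p under 0.05, against 915 of 8005 named genes. Their median range among W1 to W4 was 0.26, against 0.23 for named genes, and the widest was 0.59. The widest belonged to Angptl4, a lipoprotein lipase inhibitor, at 0.36, 0.18, -0.23 and 0.14 (SE 0.12, adjusted p = 0.388). In W2, where Cyp4a14 was 1.63, the targets ran from -0.33 to 0.36 with a median of 0.04. Cyp4a14 was picked for its width, so its distance from the targets is part of the choice. The median over the 32 was -0.04 in W1, -0.09 in W3 and 0.04 in W4. A missed threshold does not show that the targets did not vary.

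**Figure D3:**
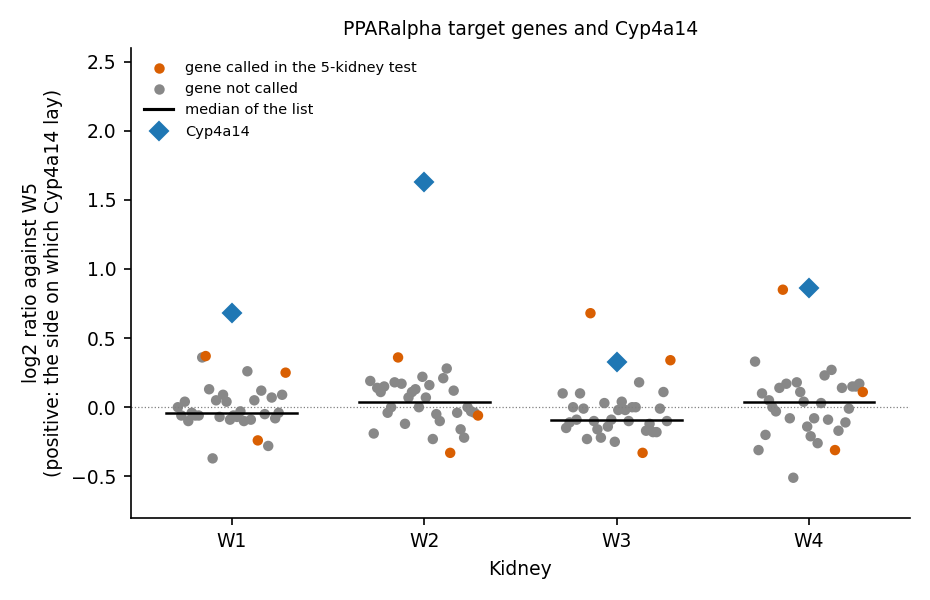
Log2 ratios against W5 (y axis) of the 32 PPARalpha targets tested in each mouse (x axis), orange where the 5-kidney test called the gene and grey otherwise, with the list median as a line and Cyp4a14 as a diamond. In W2 the targets lie between -0.33 and 0.36, below the diamond at 1.63. Cyp4a14 was picked for its wide range, so this distance is part of the choice.

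Among the targets that were not called, Creb3l3, a liver-type transcription factor of lipid metabolism, had a range of 0.58, Etfb, an electron carrier of mitochondrial oxidation, 0.47 and Crat, carnitine acetyltransferase, 0.37 (adjusted p = 0.159, 0.146 and 0.497). Hadha, of the mitochondrial trifunctional protein, ranged over 0.36 (adjusted p = 0.0787). Acadvl, Acadl and Acadm, the mitochondrial dehydrogenases of very long, long and medium chains, had ranges of 0.23, 0.24 and 0.31, and none was called (adjusted p = 0.593, 0.419 and 0.449). The other Acadm probe ranged over 0.45 (adjusted p = 0.177). Fabp1, the liver type fatty acid binding protein, ranged over 0.23, and Plin2, which coats lipid droplets, over 0.28 (adjusted p = 0.78 and 0.0885). Pex11a, a peroxisome proliferation factor, was 0.12, 0.12, -0.17 and -0.17 (SE 0.09, adjusted p = 0.282). Acot3, a peroxisomal acyl-CoA thioesterase, had 2 probes that disagreed: one ranged over 0.16 and was not called, and the other lay at -0.38, -0.54, -0.21 and -0.25 and was called (adjusted p = 0.00208). Acot genes form a cluster of near copies, so this difference is uncertain. Hadha, the acyl-CoA dehydrogenases, Fabp1, Plin2, Pex11a and Acot3 were chosen for naming after their values were seen.

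Partners of P450 enzymes and the later steps of omega oxidation had 0 of 11 tested members called by limma, with 4 at an unadjusted p under 0.05. The widest was Acaa1a, a peroxisomal thiolase, at 0.00, 0.19, 0.10 and 0.33 in W1 to W4 (SE 0.09, adjusted p = 0.129). Cyb5a, the cytochrome b5 that passes electrons to P450 enzymes, was -0.02, -0.24, -0.13 and -0.24 (SE 0.08, adjusted p = 0.0898). Aldh3a2, the fatty aldehyde dehydrogenase that follows omega-hydroxylation, had a range of 0.06. The median range of the list was 0.20.

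Ppara, the receptor gene itself, was 0.06, -0.02, -0.07 and 0.23 (SE 0.09, adjusted p = 0.423), and its other probe was 0.12, 0.33, 0.36 and 0.29 (SE 0.13, adjusted p = 0.0519). Of 16 tested receptors and partners, 4 were called in the 5-kidney test (25%) and 1 among W1 to W4. That 1 was Ppard, the related fatty acid receptor, at 0.00, 0.10, -0.78 and -0.30 (SE 0.09, adjusted p = 0.00541 among W1 to W4). W3 was its extreme kidney. Nr1h4, the bile acid receptor FXR, was -0.49, -0.48, -0.57 and -0.90 (SE 0.07), Ppargc1a, a coactivator of oxidative metabolism, was -0.02, 0.12, 0.57 and 0.25 (SE 0.09), and Crebbp, a histone acetyltransferase, was 0.14, 0.31, 0.31 and -0.04 (SE 0.08). Rxra, the partner of PPAR receptors on DNA, ranged over 0.20 and was not called (adjusted p = 0.524), and its other probe ranged over 0.46 (adjusted p = 0.106).

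Genes of arachidonic acid and eicosanoid metabolism had 1 of 10 tested members called (10%). This was Ptges3, a prostaglandin E synthase and Hsp90 co-chaperone, at -0.06, 0.48, 0.17 and -0.10 (SE 0.09, adjusted p = 0.029). Its call did not hold in 7 of 29 settings, and it was not called among W1 to W4 (adjusted p = 0.116). The 5-lipoxygenase gene Alox5 and its partner Alox5ap ranged over 0.22 and 0.27 without a call. No Cyp2c or Cyp2j epoxygenase of the list was tested.

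Androgen responsive kidney genes had 4 of 9 tested members called (44.4%) and 2 among W1 to W4. Slc22a7, an organic anion transporter, was 0.05, 0.53, -0.02 and 0.50 (SE 0.07), and Odc1, the first enzyme of polyamine synthesis, was -0.21, 0.28, -0.62 and 0.17 (SE 0.10). Hsd11b1, which regenerates active glucocorticoid, was -0.46, -0.71, -0.19 and -0.28 (SE 0.09), and Cndp2, a dipeptidase, was -0.34, -0.27, -0.16 and -0.22 (SE 0.10). The androgen marker Kap lay at 0.11, 0.25, 0.22 and 0.23 (SE 0.09) and was not called (adjusted p = 0.0728). The 4 called genes lay on different sides of W5. For Cndp2 the adjusted p was 0.0402, its other probe had 0.0772, and the call did not hold in 18 of 29 settings.

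Fasting and glucocorticoid responsive genes had 5 of 12 tested members called (41.7%) and 1 among W1 to W4. Fkbp5, a co-chaperone of the glucocorticoid receptor, was that 1, at 0.31, 0.39, -0.21 and 0.12 (SE 0.07, adjusted p = 0.017 among W1 to W4). Cdkn1a, a cyclin-dependent kinase inhibitor, was 0.53, 0.45, -0.04 and 0.26 (SE 0.10), and Errfi1, an inhibitor of EGF receptor signalling, was 0.17, 0.43, 0.58 and 0.36 (SE 0.09). Mt2, a metallothionein, was 0.25, 0.41, 0.35 and 0.44 (SE 0.12), and Ppargc1a was the fifth. W3 lay at or beyond W5 in Fkbp5 and Cdkn1a and was the extreme kidney in Errfi1 and Ppargc1a. All 5 had coefficients on the Cyp4a14 side in W2 and also in W4. Of the 12 tested, 10 lay on that side in each of W1, W2 and W4, and 6 in W3. Of 8005 named genes, 4273, 3762, 3799 and 3925 lay there in W1 to W4. Every ratio shares the W5 extract, so sides in different mice, here and below, are not independent. The median of the 12 was 0.26, 0.14, 0.01 and 0.15 in W1 to W4. Klf9 and Asns lay on the opposite side in W2, at -0.17 and -0.18.

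Genes whose profile was most like that of Cyp4a14 were found by Pearson correlation (r) over the 5 kidneys, among 183 other named genes that were called in the 5-kidney test and ranged over at least 0.5. This is a description over 5 points that share the W5 extract and the arrays. Of the 183, 8 had r above 0.8 and 19 had r below -0.8. Among the 50 chromosome 4 neighbours, taken whether called or not, 4 had r above 0.8 and 4 below -0.8. Such r is thus not rare over 5 points. On the same side, 8 genes were taken, with r from 0.82 to 0.94. Acy1, an aminoacylase abundant in kidney, came first. Its arrays read -0.03, 0.12, 0.17 and 0.06 in W1, and 0.86, 1.18, 1.06 and 0.85 in W2. They read -0.11, 0.05, -0.05 and 0.10 in W3, and 0.44, 0.49, 0.31 and 0.87 in W4. W2 and W4 thus stood away from W5 while W1 and W3 did not, and W2 touched W4 through its array 4.

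Gldc, of the glycine cleavage system, was 0.09, 0.59, -0.10 and 0.15 in W1 to W4 (SE 0.08, r = 0.93). Over the 16 arrays its r was 0.89. Nt5e, the ecto-nucleotidase CD73 that forms adenosine, was 0.26, 0.53, 0.09 and 0.49 (SE 0.06, r = 0.92), with the same order of W3, W1, W4 and W2 as Cyp4a14. Lpl, the lipoprotein lipase, was 0.03, 0.49, -0.10 and 0.15 (SE 0.09, r = 0.92). Its other probes, at 0.10, 0.64, -0.13 and 0.24 and at 0.09, 0.47, -0.19 and 0.35, were both called and had r of 0.93 and 0.86.

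The rest of the same-side genes were S100a8, a calcium-binding protein of neutrophils, Rdh16f2, a retinol dehydrogenase, the transporter Slc22a7 and Cox8b, a muscle type subunit of cytochrome oxidase. Their r over the kidneys was 0.86, 0.85, 0.85 and 0.82. Rdh16f2 was 0.77, 1.1, 0.73 and 0.66 (SE 0.09), so W1, W3 and W4 lay together and W5 stood apart from all 4. Cox8b was noisy, with a technical SD of 0.37 and an r of 0.28 over the 16 arrays, and lost its call in 20 of 29 settings.

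On the opposite side, 5 genes were taken, with r from -0.97 to -0.95. Dnase1, the secreted endonuclease that the kidney makes in quantity, was the most precise. Its arrays read -0.24, -0.28, -0.18 and -0.28 in W1, and -0.63, -0.66, -0.65 and -0.62 in W2. They read 0.00, -0.08, 0.01 and -0.05 in W3, and -0.28, -0.57, -0.46 and -0.37 in W4. The arrays of W2 again lay beyond all others, and those of W3 around W5. Its technical SD was 0.0628 and its r over the 16 arrays -0.90.

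Fam151a, the chromosome 4 gene above, had an r of -0.97 over the kidneys and -0.90 over the arrays. Podxl, the podocyte and endothelial sialomucin podocalyxin, was -0.40, -0.68, -0.04 and -0.47 in W1 to W4 (SE 0.08). Prelp, a matrix proteoglycan, was -0.16, -0.69, -0.17 and -0.46 (SE 0.12), and Osbpl6, an oxysterol-binding protein relative, was -0.21, -0.50, -0.03 and -0.40 (SE 0.12). The other probes of Prelp and Osbpl6 ranged over 0.15 and 0.21 and were not called (adjusted p = 0.812 and 0.566), so for these genes the likeness rests on 1 of 2 probes.

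**Figure D4:**
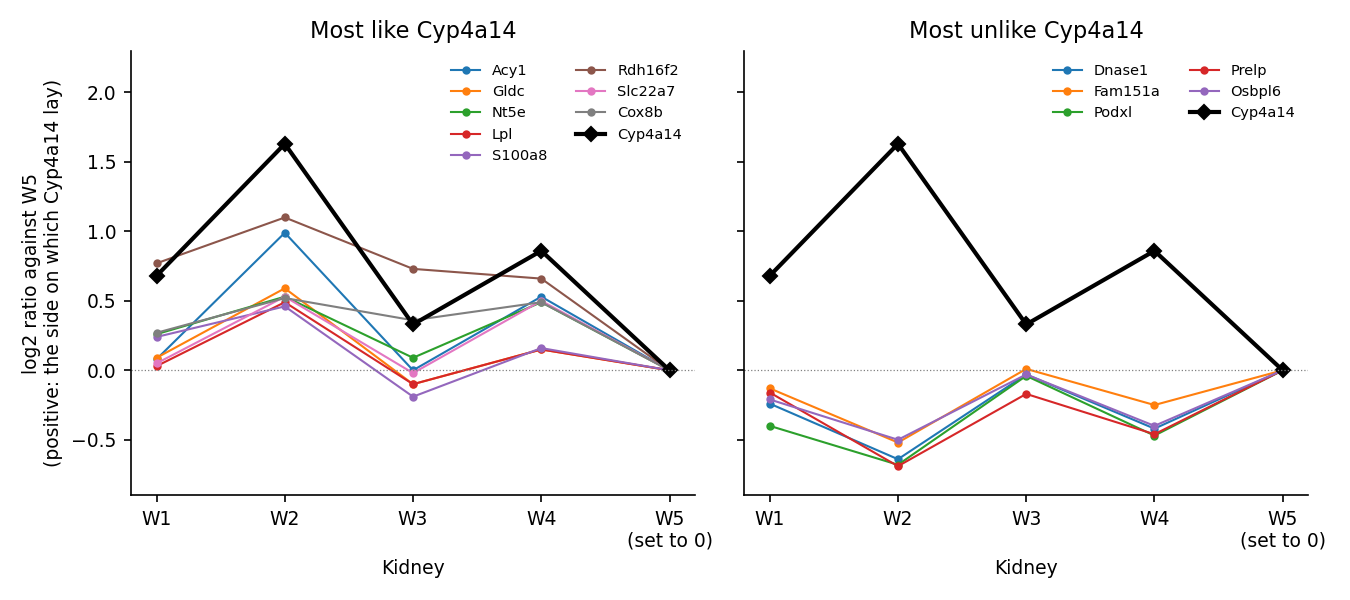
Fitted log2 ratios against W5 (y axis) over the kidneys W1 to W4 with W5 at 0 (x axis) for the 8 genes most like Cyp4a14 (left) and the 5 most unlike (right), with Cyp4a14 as the thick line. The genes were chosen by likeness to a profile whose extreme is W2, so their extreme there is part of the choice. In W2 the same-side genes lie at 0.46 to 1.1 and the opposite-side genes at -0.69 to -0.50. Slc22a7, Nt5e and Cox8b lie at 0.53, 0.53 and 0.52 in W2 and at 0.50, 0.49 and 0.49 in W4, closer than their SE.

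Kidney extracts hold many cell types, and in bulk RNA fewer cells of a type and less RNA per cell cannot be told apart. Ratios give no level, so whether a marker is near absent cannot be read from them. The kidney markers used as a check were measured, with 7 tested for the first segments and 10 for the third segment of the proximal tubule, 3 for the loop and distal tubule, 6 for the collecting duct and 4 for the glomerulus. Endothelial markers had 3 of 7 members called in the 5-kidney test and the same count among W1 to W4 (42.9% each). Over all named genes the shares were 4.2% and 0.824%, against which the marker counts below also stand. All lists, those of the paragraphs above included, were chosen with earlier results of these data known. A high share in a list can therefore reflect that choice, and no enrichment was tested. All 7 endothelial markers lay on the side opposite to Cyp4a14 in W2 and in W4, while 3 did so in W3. Of 8005 named genes, 3762, 3799 and 3925 lay on the Cyp4a14 side in W2, W3 and W4. The median of the 7 endothelial markers was -0.03, -0.40, 0.04 and -0.23 in W1 to W4.

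Esm1, an endothelial proteoglycan, was -0.14, -0.54, -0.04 and -0.74 (SE 0.08, adjusted p = 1.45e-05). Emcn, the sialomucin endomucin, was -0.03, -0.51, -0.04 and -0.59 (SE 0.10, adjusted p = 0.00102), and Egfl7, a secreted vessel factor, was -0.06, -0.45, 0.09 and -0.26 (SE 0.07, adjusted p = 0.00254). These are 5-kidney values. In the F test among W1 to W4 the adjusted p was 0.00509 for Esm1 but 0.0435, near the threshold, for both Emcn and Egfl7. Unlike Cyp4a14, Esm1 and Emcn were as far out in W4 as in W2, and W1 lay near W5. The main probe of Flt1, a VEGF receptor, was not called, while its other probe, at -0.12, -0.46, 0.12 and -0.45, was (adjusted p = 0.00393). The r of the 7 markers with Cyp4a14 over the kidneys ran from -0.92 to -0.65. Glomerular markers had 3 of 4 called, with Podxl and Ehd3 at -0.68 and -0.36 in W2, but Npnt at 0.15 on the other side. A further probe of Ehd3 ranged over 0.26 with no call (adjusted p = 0.624). The part of vessel content in the Cyp4a14 values was not tested.

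Markers of the third segment of the proximal tubule had 6 of 10 called (60%), and these did not move one way. Slc22a7, Slc5a1, a glucose transporter, Gramd1b and Slc6a18, an amino acid transporter, lay on the Cyp4a14 side in W2 at 0.53, 0.43, 0.18 and 0.14, whereas Slco1a6 and Slc17a3, both anion transporters, lay at -0.47 and -0.22. The list median was 0.15, 0.14, 0.00 and 0.31 in W1 to W4. Earlier segments had 3 of 7 called, with Aqp1, the water channel, at -0.17 in W2 and the amino acid transporter Slc7a7 and the urea cycle enzyme Ass1 at -0.39 and -0.33. Ass1 lost its call in 21 of 29 settings. The median of the earlier segments in W2 was -0.16. Collecting duct markers had 3 of 6 called, namely the water channel Aqp2, the anion exchanger Slc26a4 and Foxi1, a transcription factor of intercalated cells, with a list median of -0.05 in W2. The part of tubule composition was not tested.

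**Figure D5:**
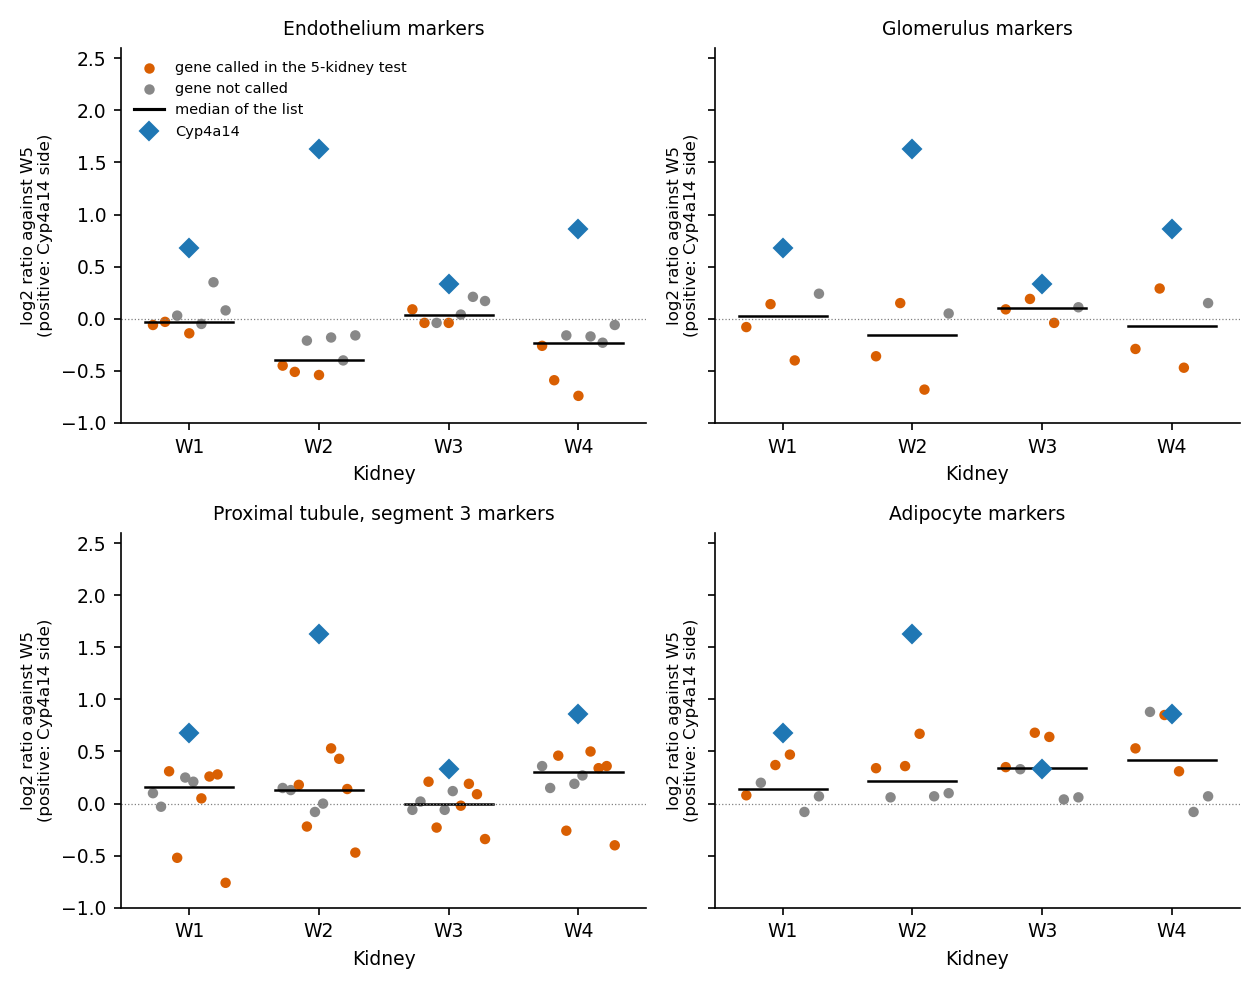
Log2 ratios against W5 (y axis) of the tested markers of endothelium, glomerulus, the third proximal segment and adipocytes in each mouse (x axis), orange where called in the 5-kidney test, with the list median as a line and Cyp4a14 as a diamond. All 7 endothelial markers lie below 0 in W2 and W4, with medians of -0.40 and -0.23.

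Adipocyte markers had 3 of 6 called. Fabp4, the fat cell fatty acid binding protein, was 0.47, 0.67, 0.64 and 0.31 (SE 0.10), and Car3, a carbonic anhydrase of fat and muscle, was 0.08, 0.34, 0.35 and 0.53 (SE 0.09). With Cidec, these lay on the Cyp4a14 side in all 4 mice, but their order differed, since W4 was the extreme kidney in Cidec and Car3. The other Car3 probe, at 0.38, 0.62, 0.63 and 0.87, was called too (adjusted p = 2.14e-06). Cidea, with the widest range of the list, was 0.20, 0.06, 0.33 and 0.88 (SE 0.22) and was not called (adjusted p = 0.112). Lipe and Retn were not called either. Lipe lay at -0.08, 0.07, 0.04 and -0.08 in W1 to W4, and Retn ranged over 0.10. Hepatocyte markers were included because liver adjoins the right kidney and expresses Cyp4a14. Of 17 tested, 5 were called. Serpina1e, an alpha-1-antitrypsin gene, was -1.89, -2.81, -2.63 and -2.20 in W1 to W4 (SE 0.09), and its relative Serpina1b was -1.21, -2.15, -2.12 and -1.63 (SE 0.13), so W5 stood apart from all 4 mice in both. Apoh, a plasma glycoprotein, lay at -0.44 in W2 and Ttr, transthyretin, at 0.54, while Cps1, of the urea cycle, was extreme in W3 at -0.38. The other Ttr probe was not called, with a range of 0.16 (adjusted p = 0.907), and Cps1 lost its call in 18 of 29 settings. The 12 markers that were not called ran in W2 from -0.27, in Itih4 and F2, to 0.51, in Hp, with the albumin gene Alb at -0.05. No member was called among 8 leukocyte, 6 muscle, 4 adrenal, 3 loop and distal tubule and 2 red cell markers tested with limma, where 3, 2, 1, 2 and 0 of them had an unadjusted p under 0.05. The other probe of Lyz2, the leukocyte lysozyme, was called, at -0.09, -0.32, -0.48 and 0.01 (adjusted p = 0.0117).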

How the data were processed

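Per the labels, the authors subtracted background from mean intensities (GenePix 4000A, GenePix Pro 3.0) and scaled them so that the median ratio was 1; the deposited values are log2 ratios. The base was read from the values: once the commonest value of an array was removed, 1.56% to 5.01% matched, within 2e-06, log2 of quotients of integers no larger than 12, and at most 0.126% did so for other bases. The numerator channel, the dye of each channel and the reason for empty values are not stated there. Each array had 80.2% to 91.1% of probes with a value. Arrays with W5 in channel 1 were turned. Afterwards, arrays of different mice correlated at 0.015 to 0.386 with one orientation and at -0.145 to 0.15 with opposite ones. Arrays of the same mouse correlated at 0.161 to 0.362 with one orientation and at -0.0844 to 0.169 with opposite ones. Agreement over all probes thus depended on orientation, also within a mouse.

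The gene and all lists were chosen with earlier results of these data known. Probes missing no more than 1 of the 4 values of each mouse (15715) were fitted with limma 3.58.1 (R 4.3.3), with 4 mouse terms and a dye term. Moderated F tests were adjusted over these probes by the Benjamini-Hochberg method. They concern these RNA extracts, not a population of mice, and the scripts were tested on simulated data. List counts use 8005 named genes, each by the probe with most values. The naming rule took list members called, up to 4 others per list by range, and the genes most like and unlike Cyp4a14; any other gene named was chosen after its values were seen. Of 11723 probes with 1 symbol, 11590 matched a GRCm38.p6 gene table, used for names and gene order. Alternatives varied the dye term, orientation, scaling, centring, weights and filters, and left out arrays or mice.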

Additional observations from a re-analysis of the deposited data

Results flagged for a closer look

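For Cyp4a14 and the 13 genes of like or unlike profile, 70 groups of values were examined for a single value far from the rest, and 2 stood out, where chance gives about 5% of groups. Gldc read -0.10 on the array of W1 numbered 4, against 0.13 to 0.17 on the other arrays of W1. Fam151a read 0.11 on the array of W4 numbered 4, against -0.38 to -0.35 on the other arrays of W4. None of the Cyp4a14 groups stood out in this way, the array of W4 at 0.42 included.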

How the results depend on the processing

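Cyp4a14 kept its side of W5 in all 4 mice under every alternative run. W2 stayed between 1.51 and 1.74, W3 between 0.22 and 0.43, W4 between 0.75 and 1.02 and W1 between 0.65 and 0.80, the last with a common median absolute deviation. Its range among the mice was 1.08 with the mouse in channel 1 only and 1.51 in channel 2 only, where it was 1.3 over all arrays. It was 0.53 without mouse W2 and 0.94 without mouse W3, and the range over the kidneys was 0.86 without mouse W2. Leaving out 1 array gave 1.22 to 1.39 among the mice and 1.55 to 1.72 over the kidneys. The 5-kidney count of 629 probes was 403 without the dye term, 181 and 115 with channel 1 or channel 2 arrays only (8 arrays each), 383 with 1 probe per gene (fewer probes tested), 378 without mouse W1 and 335 without mouse W2. The count among W1 to W4, 110, was 62 without the dye term, 29 and 4 by channel, 243 with array weights, 72 without array W3.2, and 54, 53, 49 and 70 without W1, W2, W3 and W4 in turn. Without 1 array these counts ran from 457 to 671 and from 72 to 125. PPARalpha targets called in the 5-kidney test numbered 4 with array weights (where all probes called were 833), 1 and 0 by channel, 1 without mouse W3 and 2 to 3 without 1 array, and 0 among W1 to W4 in all 30 settings. Causes of these shifts were not tested beyond the smaller sets named. Of 120 named genes, 51 were called, of which 7 kept the call in every setting, namely Acy1, Dnase1, Esm1, Nr1h4, Rdh16f2, Serpina1b and Serpina1e, and 44 lost it in at least 1. Another 12 were not called but gained a call in at least 1 setting, among them Kap in 3 and Acaa1a, Pdzk1ip1 and Lpin1 in 2 each. Crebbp and Ehd3 lost the call in 11 of 29 each, and Lpl, S100a8 and Osbpl6 in 6 of 29 each. Array numbers are shared by the mice. Same-numbered arrays of different mice deviated together weakly, with correlations of 0.0863 to 0.335 and a median of 0.164. Differently numbered arrays of different mice had -0.351 to 0.324, with a median of -0.103. Same-numbered arrays also share an orientation, so these values cannot tell whether the numbers mark a pairing. With the array number as a replicate block the counts were 591 and 97, and the Cyp4a14 range stayed at 1.63. With r over 16 arrays, 4 of 8 like and 2 of 5 unlike genes were shared with those named, and over W1 to W4 alone 5 and 2. Signal over background is not given in the values used here, so what it limits could not be examined.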
